A study of Rattus norvegicus with 12 samples.

Results

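The 10 genes described here encode the hypoxia-inducible factors (HIFs), the proteins that control their stability, and some of their direct targets. They were picked by name, with earlier results of these data known, and make up 10 of the 14217 genes that had a probe set with 1 gene symbol. Hif1a and Epas1 encode the alpha subunits HIF-1 alpha and HIF-2 alpha, Arnt encodes the shared beta subunit, Egln1, Egln3 and Vhl encode regulators, and Vegfa, Bnip3, Adm and Ddit4 are targets. The 10 genes had 13 probe sets. Epas1, Egln1 and Vegfa (3 genes) had more than 1, the other 7 genes had 1, and for each gene the probe set of highest mean over the 12 arrays was used. Arnt, with a mean log2 signal of 6.93, was the only one of the 10 below 7.16, the median of all probe sets.

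RNA came from the fracture hematoma, the clot that fills a fresh bone gap, of Sprague-Dawley rats at day 3 after the left femur had been cut at midshaft and held 1.5 mm apart by an external fixator. The 4 groups crossed age with fixation. OR rats were 52 weeks old with rigid fixation (offset of 7.5 mm between bone and fixator), OSR rats were 52 weeks old with semi-rigid fixation (15 mm), YR rats were 12 weeks old with rigid fixation and YSR rats were 12 weeks old with semi-rigid fixation. The study's methods describe the rats as female, and the labels name no allele or drug in any group. Each group had 3 arrays (Affymetrix rat expression arrays, 1 colour), and each array held RNA pooled from 3 animals, 9 animals per group, so that the spread between arrays is a spread between pools. A hematoma is a mixture of cells, and fewer cells of a type and less RNA per cell cannot be told apart.

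HIF-1 alpha and HIF-2 alpha are regulated mainly as proteins. In the presence of oxygen they are hydroxylated by the prolyl hydroxylases of the Egln family, bound by the VHL protein and degraded, and when oxygen is short they persist, pair with ARNT and activate genes through hypoxia response elements. The level of their mRNA is not a measure of the activity of the factor. HIF-1 alpha is widely expressed and is best known for driving glycolysis, whereas HIF-2 alpha is prominent in endothelium and a few other cell types. Egln1 and Egln3 are themselves HIF targets and so close a feedback loop.

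The promoters of 4 members whose values moved together over the arrays are shown to set their hypoxia response motifs side by side. These are Bnip3, which encodes a mitophagy receptor, both hydroxylase genes, and Adm, which encodes the vasodilator peptide adrenomedullin. Each window holds 250 bases before and 50 after the start site in RefSeq's annotation of GRCr8, and is written 5′ to 3′ on the strand of the gene. Capitals mark the core motif of the hypoxia response element in its forms ACGTG and GCGTG, on either strand. The positions are chr1:203154913-203155212 (minus strand) for Bnip3, chr19:69804632-69804931 (minus strand) for Egln1, chr6:77410966-77411265 (minus strand) for Egln3 and chr1:174179950-174180249 (plus strand) for Adm.
Bnip3: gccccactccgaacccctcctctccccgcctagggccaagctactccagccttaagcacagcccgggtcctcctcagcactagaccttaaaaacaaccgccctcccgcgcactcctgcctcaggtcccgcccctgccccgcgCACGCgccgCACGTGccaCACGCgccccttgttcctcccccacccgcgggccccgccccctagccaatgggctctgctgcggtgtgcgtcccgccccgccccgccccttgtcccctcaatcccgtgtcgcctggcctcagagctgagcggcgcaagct
Egln1: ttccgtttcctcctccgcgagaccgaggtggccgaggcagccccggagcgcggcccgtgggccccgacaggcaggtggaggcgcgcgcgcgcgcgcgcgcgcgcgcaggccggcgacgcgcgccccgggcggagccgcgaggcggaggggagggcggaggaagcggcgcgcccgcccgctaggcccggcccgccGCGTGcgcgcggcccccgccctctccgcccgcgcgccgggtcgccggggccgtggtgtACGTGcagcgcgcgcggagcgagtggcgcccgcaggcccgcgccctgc
Egln3: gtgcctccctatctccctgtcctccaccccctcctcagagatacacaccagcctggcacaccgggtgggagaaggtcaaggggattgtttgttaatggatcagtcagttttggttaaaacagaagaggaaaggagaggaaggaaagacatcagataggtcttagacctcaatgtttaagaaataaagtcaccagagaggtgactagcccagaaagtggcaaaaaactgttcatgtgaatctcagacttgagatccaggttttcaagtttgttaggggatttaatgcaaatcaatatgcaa
Adm: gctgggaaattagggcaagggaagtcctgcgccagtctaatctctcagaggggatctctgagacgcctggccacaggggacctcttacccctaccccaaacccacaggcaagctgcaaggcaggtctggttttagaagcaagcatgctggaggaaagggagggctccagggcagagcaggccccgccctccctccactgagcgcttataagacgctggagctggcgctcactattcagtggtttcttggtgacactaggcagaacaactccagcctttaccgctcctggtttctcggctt
The Bnip3 window held 4 matches, GCGTG on the opposite strand at -108 and -90 and ACGTG at -99 and -98, counted from the start site to the first base of the match. The matches at -99 and -98 overlap on opposite strands as the palindrome CACGTG. The Egln1 window held GCGTG at -56 and ACGTG at 3, and no match to either form was found in the windows of Egln3 and Adm. The Adm start site used lies inside the span annotated for the gene, as do those of Hif1a and Epas1 and of 1 of the Vegfa windows, which are not shown.

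All 10 members had at least 1 promoter sequence in the table, and with a pair for Vegfa there were 11. ACGTG was found for 4 of the 10 members and either form for 5. Hif1a had 3 matches, of which those at -229 and -228 overlap as CACGTG, Ddit4 had ACGTG at -138 and GCGTG at -66, and Arnt had GCGTG at -42. Epas1, Vhl and Vegfa had none, like Egln3 and Adm. Only 250 bases before and 50 after the start site were searched, so no match does not show that a gene lacks the element. Over all 33469 promoters of the same length, 19.25% held ACGTG, 29.7% held GCGTG and 41.6% held either form. The windows shown differed in base composition, with a GC content of 71.3% for Bnip3, 84.7% for Egln1, 44.7% for Egln3 and 58.0% for Adm.

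Over all 31042 probe sets tested, limma called 1 in OR against YR (Stab1, lower), 1 in OSR against YSR (Cyp26b1, higher), both of these genes in old against young and 0 in the other comparisons, where the unadjusted p was under 0.05 for between 1181 probe sets (interaction) and 1778 probe sets (rigid against semi-rigid). Over the probe sets with a mean signal at or above the median, 9 of the 12 arrays correlated best with an array from outside their own group. The 3' to 5' ratio of Gapdh, a sign of RNA quality, was 2.95 (log2) in OR array 1, 6.69 in YSR array 1 and between 0.33 and 1.59 in the other arrays. Cell type markers were set against the median of all probe sets in mean signal. All 4 measured erythroid genes, all 4 of platelets, all 6 of macrophages and 3 of 4 of neutrophils reached it. Below it were 3 of 4 T and NK cell markers, 2 of 3 B cell markers and 2 of 3 osteoblast markers.

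Epas1 had the widest span of group means among the members. The Epas1 log2 signal was 11.92, 12.09 and 11.16 in the OR arrays, 11.26, 10.31 and 10.03 in the OSR arrays, 9.99, 10.09 and 10.33 in the YR arrays, and 10.32, 9.84 and 9.89 in the YSR arrays. The group means were 11.73 ± 0.49 in OR, 10.53 ± 0.65 in OSR, 10.14 ± 0.18 in YR and 10.02 ± 0.26 in YSR (SD, n = 3 each). Every OR array lay above every YR array, and of the OSR arrays array 1 alone lay among the OR values. Thus 4 arrays were between 11.16 and 12.09 and the other 8 between 9.84 and 10.33.

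The Epas1 difference OR minus YR was 1.59 ± 0.30 on the log2 scale (± SE, a 3.01-fold higher signal), which did not pass limma's test over all probe sets (adjusted p = 0.202). Old minus young was 1.05 ± 0.21 (2.07-fold, adjusted p = 0.156). OR minus OSR was 1.19 ± 0.30 (adjusted p = 0.872), OSR minus YSR was 0.51 ± 0.30 (adjusted p = 0.959) and YR minus YSR was 0.12 ± 0.30 (adjusted p = 0.991). Rigid minus semi-rigid was 0.65 ± 0.21 (adjusted p = 0.845), and the interaction, (OR minus OSR) minus (YR minus YSR), was 1.08 ± 0.42 (adjusted p = 0.990). Without OSR array 3, old minus young was 1.18 with an adjusted p of 0.0495, while over the 20 alternatives of that difference it ran from 0.0495 to 0.451. The second Epas1 probe set was dim, with group means of 6.93 in OR, 5.94 in OSR, 5.24 in YR and 6.18 in YSR, and its difference OR minus YR was 1.69 ± 0.86.

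Hif1a spanned a narrower range. Its log2 signal was 12.96, 13.37 and 13.40 in the OR arrays, 13.11, 13.08 and 13.11 in the OSR arrays, 12.80, 13.00 and 13.21 in the YR arrays, and 13.12, 12.74 and 12.87 in the YSR arrays. The means were 13.24 ± 0.25 in OR, 13.10 ± 0.01 in OSR, 13.01 ± 0.20 in YR and 12.91 ± 0.19 in YSR (SD, n = 3 each), and the arrays of OR and YR overlapped. OR minus YR was 0.24 ± 0.15 (adjusted p = 0.722) and old minus young was 0.21 ± 0.11 (adjusted p = 0.615). For both factors the group means ran OR, OSR, YR, YSR from high to low. Neighbours in that order did not differ beyond their spread for Hif1a. For Epas1 the OSR arrays overlapped with the YR arrays, the YR arrays with the YSR arrays, and the OR arrays with OSR array 1.

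**Figure D1:**
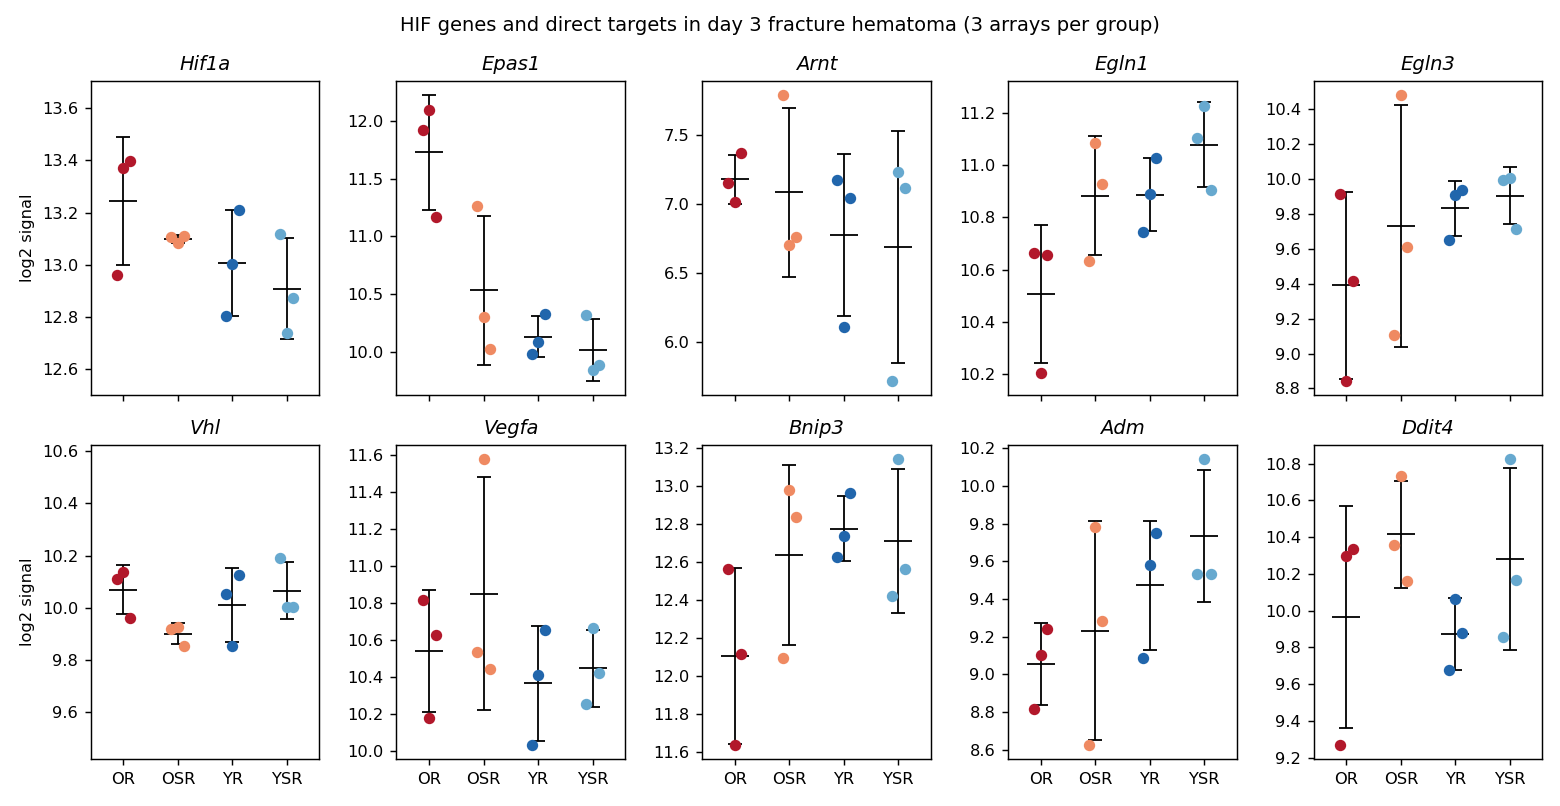
Log2 signal of the 10 members in the 12 arrays. Each panel is 1 gene with its own vertical axis, points are arrays, horizontal lines are group means and bars are ± 1 SD (n = 3 per group). Epas1 in OR (11.16 to 12.09) lay above all YR arrays, and Egln1 and Bnip3 in OR lay below all YR arrays.

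Arnt encodes the partner that both alpha subunits need to bind DNA. Its dim probe set gave 7.17 ± 0.18 in OR, 7.08 ± 0.61 in OSR, 6.77 ± 0.58 in YR and 6.69 ± 0.84 in YSR (log2 signal, SD, n = 3 each). The lowest array was YSR array 1, at 5.72, which also had the highest Gapdh 3' to 5' ratio, and the part of RNA quality in that value was not tested. Old minus young was 0.40 ± 0.33 (adjusted p = 0.775).

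Egln1, the main oxygen sensor of the pathway, had log2 signals of 10.66, 10.20 and 10.65 in the OR arrays, 10.63, 11.08 and 10.93 in the OSR arrays, 10.75, 10.89 and 11.03 in the YR arrays, and 11.10, 11.23 and 10.91 in the YSR arrays. All OR arrays were below all YR arrays, and OSR array 1 was the lowest of its group. OR minus YR was -0.38 ± 0.16 (adjusted p = 0.568) and OR minus OSR was -0.37 ± 0.16 (adjusted p = 0.901). Old minus young was -0.29 ± 0.11 (adjusted p = 0.504) and rigid minus semi-rigid was -0.28 ± 0.11 (adjusted p = 0.845). A second, dim Egln1 probe set had means of 5.25 in OR, 4.90 in OSR, 4.43 in YR and 4.83 in YSR, and with the mean of both probe sets OR minus YR was 0.22.

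Egln3, a hydroxylase gene that is strongly induced by low oxygen, read 9.92, 8.84 and 9.41 in the OR arrays, 9.11, 10.48 and 9.61 in the OSR arrays, 9.65, 9.91 and 9.93 in the YR arrays, and 9.996, 10.01 and 9.72 in the YSR arrays (log2 signal). The old groups spread over a wider range than the young, with the lowest value in OR array 2 and the highest in OSR array 2. OR minus YR was -0.44 ± 0.31 (adjusted p = 0.754) and old minus young was -0.31 ± 0.22 (adjusted p = 0.729).

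Vhl, which encodes the recognition part of the ubiquitin ligase for hydroxylated HIF alpha subunits, varied least of the 10, from 9.85 to 10.19 over the arrays. Group means were 10.07 ± 0.09 in OR, 9.90 ± 0.04 in OSR, 10.01 ± 0.14 in YR and 10.06 ± 0.11 in YSR (SD, n = 3 each). The OR arrays (10.11, 10.14 and 9.96) were all above the OSR arrays (9.92, 9.93 and 9.85), and the OSR arrays were all below the YSR arrays (10.19, 10.002 and 10.002). OR minus OSR was 0.17 ± 0.12 (adjusted p = 0.912), OSR minus YSR was -0.16 ± 0.12 (adjusted p = 0.959) and old minus young was -0.05 ± 0.09 (adjusted p = 0.888).

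Among the targets, Bnip3 had log2 signals of 12.56, 11.64 and 12.12 in the OR arrays, 12.10, 12.98 and 12.84 in the OSR arrays, 12.63, 12.74 and 12.96 in the YR arrays, and 12.42, 13.14 and 12.57 in the YSR arrays. As for Egln1, every OR array was below every YR array, and OSR array 1 was the low one of its group. OR minus YR was -0.67 ± 0.27 (adjusted p = 0.543), OR minus OSR was -0.53 ± 0.27 (adjusted p = 0.901), old minus young was -0.37 ± 0.19 (adjusted p = 0.623) and the interaction was -0.60 ± 0.38 (adjusted p = 0.990).

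Adm read 8.82, 9.10 and 9.24 in the OR arrays, 8.63, 9.78 and 9.28 in the OSR arrays, 9.09, 9.58 and 9.75 in the YR arrays, and 9.53, 10.14 and 9.53 in the YSR arrays (log2 signal). The OR and YR arrays overlapped, and the lowest value of all was in OSR array 1. Old minus young was -0.46 ± 0.20 (adjusted p = 0.548) and OR minus YR was -0.42 ± 0.28 (adjusted p = 0.735).

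Vegfa, the main growth factor gene for blood vessels, averaged 10.54 ± 0.33 in OR, 10.85 ± 0.63 in OSR, 10.37 ± 0.31 in YR and 10.45 ± 0.21 in YSR (log2 signal, SD, n = 3 each). OSR array 2, at 11.58, stood above the other arrays, which lay between 10.04 and 10.82. Old minus young was 0.29 ± 0.20 (adjusted p = 0.711). The second Vegfa probe set was lowest in the arrays with the highest Gapdh 3' to 5' ratios, at 7.81 in OR array 1 and 7.43 in YSR array 1, against 8.60 to 9.51 in the other arrays. The part of RNA quality in these values was not tested.

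Ddit4, which encodes an inhibitor of mTORC1 signalling, read 9.27, 10.29 and 10.33 in the OR arrays, 10.36, 10.73 and 10.16 in the OSR arrays, 9.67, 10.06 and 9.88 in the YR arrays, and 9.86, 10.82 and 10.16 in the YSR arrays. Its group means were lower under rigid than under semi-rigid fixation at both ages, but the arrays overlapped. The lowest value was in OR array 1, which had a high Gapdh 3' to 5' ratio (2.95, log2). On leaving out 1 array OR minus OSR ran from -0.63 to -0.10. The part of RNA quality in the Ddit4 values was not tested. Rigid minus semi-rigid was -0.43 ± 0.21 (adjusted p = 0.845) and old minus young was 0.11 ± 0.21 (adjusted p = 0.904).

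Over the 7 comparisons limma called 0 of the 10 members, against 0.00322% of all probe sets called in OR against YR and in OSR against YSR, 0.00644% in old against young and 0% in the other comparisons. In OR against YR the unadjusted p was under 0.05 for 3 members (Epas1, Egln1 and Bnip3), against 8.34% of all probe sets. In old against young it was under 0.05 for 3 (Epas1, Egln1 and Adm, background 8.59%), in OR against OSR for 2 (Epas1 and Egln1, background 5.26%) and in rigid against semi-rigid for 2 (Epas1 and Egln1, background 5.73%). It was under 0.05 for 1 member in the interaction (Epas1, background 3.8%) and for 0 in OSR against YSR (background 4.36%) and in YR against YSR (background 4.37%).

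Arrays of OR and YR did not overlap for 3 members, Epas1 higher (7.75% of all probe sets) and Egln1 and Bnip3 lower (6.04%), against 13.8% of all probe sets in either direction. For OSR against YSR this held for 1 member (Vhl, lower, background 4.9%), for OR against OSR for 1 (Vhl, higher, background 5.74%) and for YR against YSR for 0 (background 9.38%). In old against young, with 6 arrays on each side, 0 members had separate ranges (background 0.399%). The comparisons of OR with YR and of OR with OSR share the OR arrays.

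**Figure D2:**
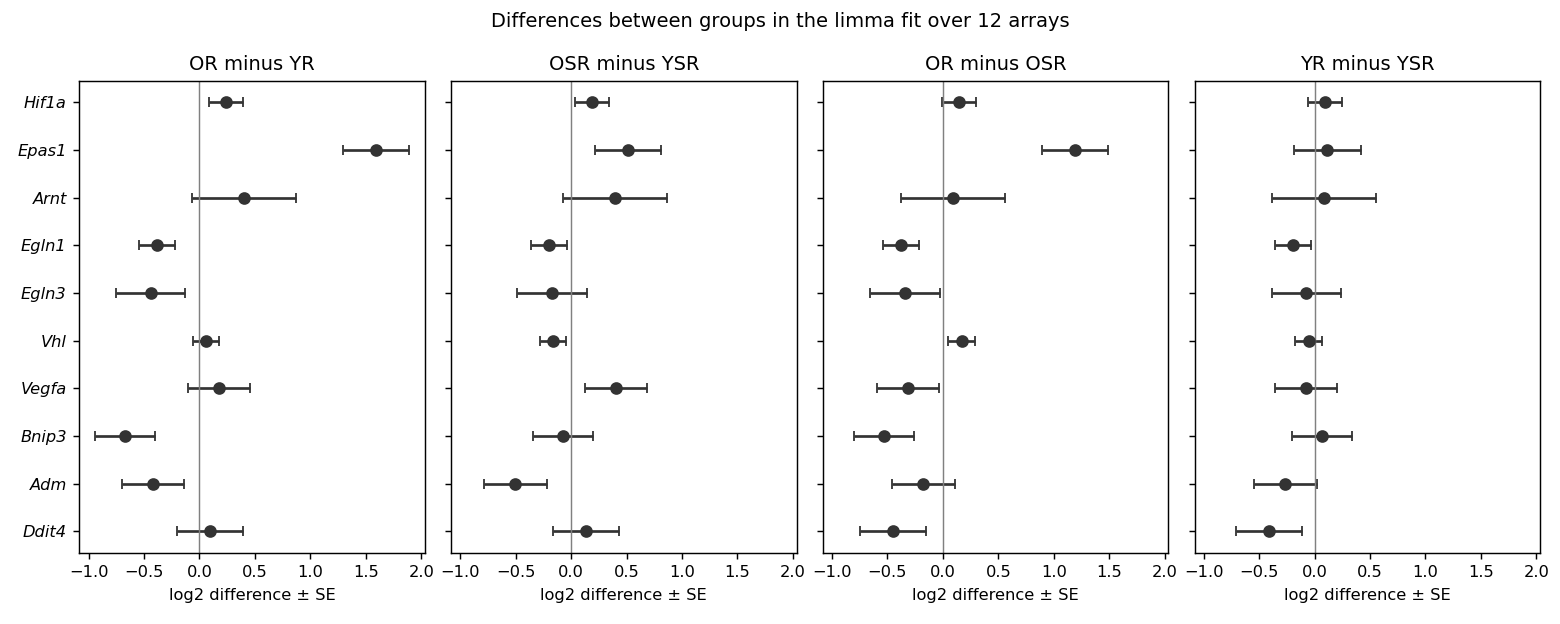
Differences between groups in the limma fit over 12 arrays, for each member. Points are log2 differences and bars are ± SE. The Epas1 differences OR minus YR (1.59) and OR minus OSR (1.19) stood farthest from 0, and 0 members passed the test in any panel.

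The members were then followed array by array, to ask which of them went with Hif1a and which with Epas1. Because 4 arrays held the high Epas1 values, a correlation with Epas1 over 12 arrays largely sets those 4 against the other 8, and values within the 8 are given beside it. With Epas1, Egln1 had a Pearson r of -0.81 over 12 arrays (permutation p = 0.00114) and a Spearman rho of -0.64 (permutation p = 0.0274). It was the only member called by limma's regression of every probe set on Epas1 (adjusted p = 0.0399), which called 644 of 31041 probe sets (2.07%), 313 of them negative (1.01%). That call was lost on leaving out OR array 2 or 3, OSR array 1, 2 or 3, YR array 3 or YSR array 2 (adjusted p from 0.0523 to 0.357, with r from -0.81 to -0.69), and over its 16 alternatives with a p the adjusted p ran from 0.0214 to 0.849.

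Bnip3 had r = -0.75 with Epas1 (permutation p = 0.00533, adjusted p = 0.0516) and a rho of -0.69 (permutation p = 0.0172). It was called on leaving out OR array 1 (r = -0.88), YSR array 1 (-0.77), YSR array 3 (-0.78) or both arrays of highest Gapdh ratio (-0.90). Over its alternatives the adjusted p ran from 0.00496 to 0.812. Adm had r = -0.67 (permutation p = 0.0171, adjusted p = 0.133) and a rho of -0.57 (permutation p = 0.0588). Egln3 had r = -0.57 (permutation p = 0.0542, adjusted p = 0.258) and a rho of -0.40 (permutation p = 0.201).

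Within the 8 arrays of lower Epas1 signal these relations were not seen. Those arrays were chosen by Epas1 itself and span only 9.84 to 10.33, which limits what r within them can show. There r with Epas1 was 0.21 for Egln1, -0.09 for Bnip3, 0.03 for Adm and 0.54 for Egln3. The relation over 12 arrays therefore rests on the 3 OR arrays and OSR array 1. Without the 2 arrays farthest from the median of Epas1, OR arrays 1 and 2, r was -0.64 for Egln1, -0.77 for Bnip3, -0.62 for Adm and -0.57 for Egln3. As deviations from group means r was -0.50 for Egln1, -0.55 for Bnip3, -0.53 for Adm and -0.37 for Egln3, with adjusted p from 0.812 to 0.879.

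The remaining members had weaker correlations with Epas1. Over 12 arrays r was 0.34 for Vhl, 0.33 for Arnt, 0.01 for Vegfa and -0.24 for Ddit4, with permutation p from 0.279 to 0.976 and adjusted p from 0.694 to 0.994. Within the 8 arrays of lower Epas1 signal r was 0.37 for Vhl, -0.54 for Arnt, 0.37 for Vegfa and -0.23 for Ddit4, so that the sign turned for Arnt.

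With Hif1a no member was called, and the regression called 0 of 31041 probe sets, with an unadjusted p under 0.05 for 2315 (7.46%). Hif1a ran only from 12.74 to 13.40 over the arrays, against 9.84 to 12.09 for Epas1. With this narrower span the calls for the 2 factors cannot be compared. The 0 calls do not show that no gene goes with Hif1a. Bnip3 had r = -0.61 (permutation p = 0.0339, adjusted p = 0.651), Egln1 -0.51 (permutation p = 0.0934, adjusted p = 0.695), Egln3 -0.46 (permutation p = 0.137, adjusted p = 0.715) and Adm -0.26 (permutation p = 0.410, adjusted p = 0.878). Their rho with Hif1a was -0.48 for Bnip3 (permutation p = 0.122), -0.31 for Egln1 (permutation p = 0.331), -0.39 for Egln3 (permutation p = 0.211) and -0.17 for Adm (permutation p = 0.606). Vhl had r = 0.12, Ddit4 0.07, Vegfa 0.03 and Arnt -0.02. Without the 2 arrays farthest from the median of Hif1a, r was -0.43 for Bnip3, -0.32 for Egln1, -0.37 for Egln3 and 0.07 for Adm. In all, 17 relations were computed, 8 members with each factor and the factors with each other.

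The factors themselves had r = 0.57 over 12 arrays (permutation p = 0.0520, adjusted p = 0.651) and rho = 0.67 (permutation p = 0.0199). Their r was 0.12 as deviations from group means, 0.49 without the 2 arrays farthest from the median of Hif1a and 0.86 in the 8 arrays of lower Epas1 signal.

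To set the factors side by side, the difference between a member's r values was taken, r with Hif1a minus r with Epas1. The difference was 0.41 for Adm (permutation p = 0.148), 0.30 for Egln1 (permutation p = 0.293) and 0.14 for Bnip3 (permutation p = 0.640). Over the 8 members the permutation p ran from 0.148 to 0.945. These p-values came from shuffling the member over arrays, which removes its relation to both factors. They therefore cannot decide whether a member went with one factor more than with the other.

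**Figure D3:**
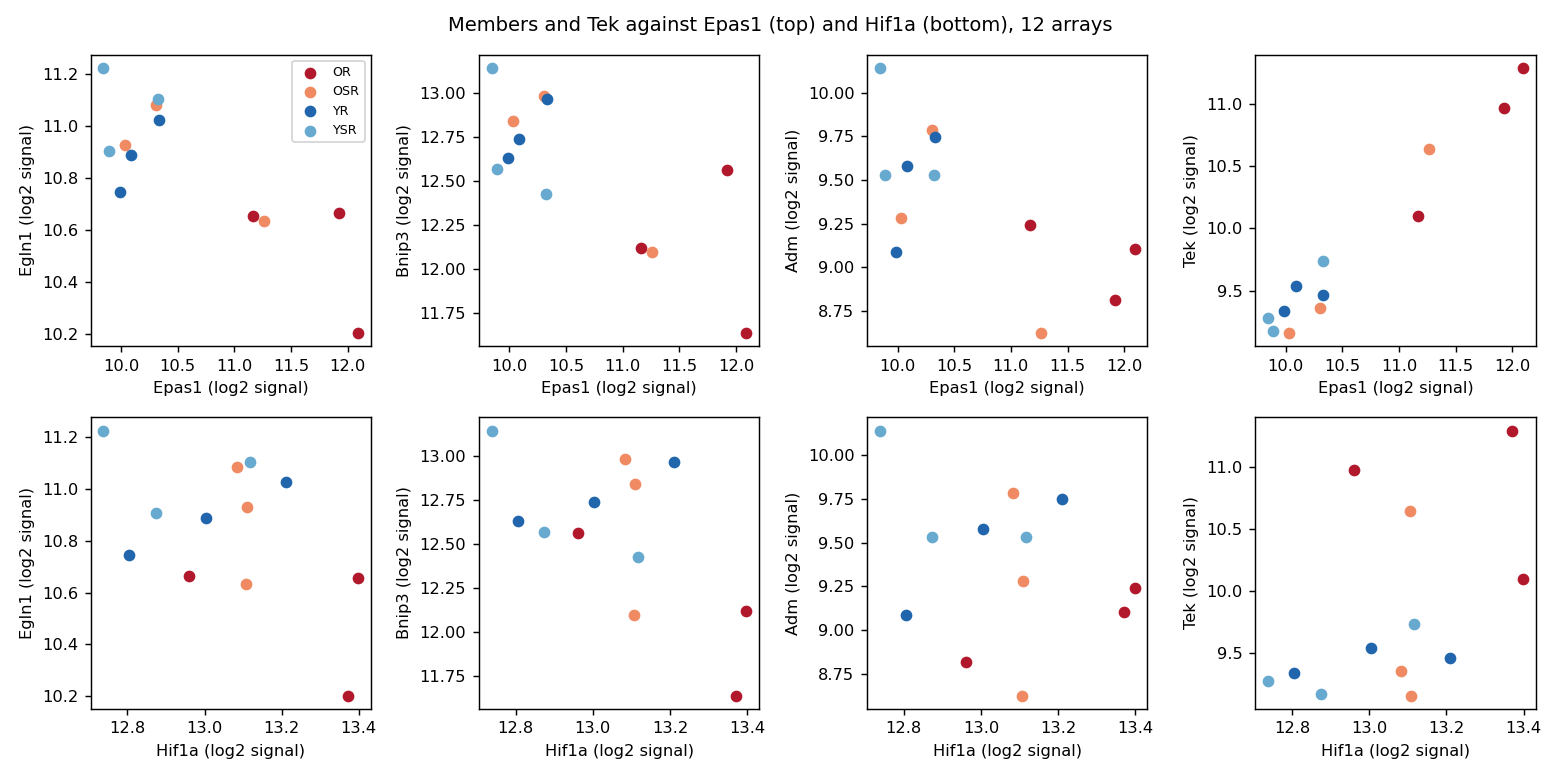
Egln1, Bnip3, Adm and Tek against Epas1 (top row) and Hif1a (bottom row), all as log2 signal, with 1 point per array coloured by group. In the top row the 3 OR arrays and OSR array 1 stand apart at Epas1 between 11.16 and 12.09, below the other 8 in Egln1 and above them in Tek, while OR array 1 (12.56) lies among the other arrays for Bnip3.

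Egln1, Egln3, Bnip3 and Adm went together. Their 6 pairwise r values ran from 0.65 to 0.87 over 12 arrays and from 0.56 to 0.87 as deviations from group means, given as a description since this set was picked after its values had been seen. Relative to each gene's mean over the 12 arrays, OR array 2 was at -0.92 for Bnip3, -0.87 for Egln3 and -0.64 for Egln1, and at 1.49 for Epas1. YSR array 2 was at 0.58 for Bnip3, 0.77 for Adm and 0.39 for Egln1, and at -0.76 for Epas1. OR array 1 departed from this, with Epas1 at 1.32 and Bnip3 at its mean.

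**Figure D4:**
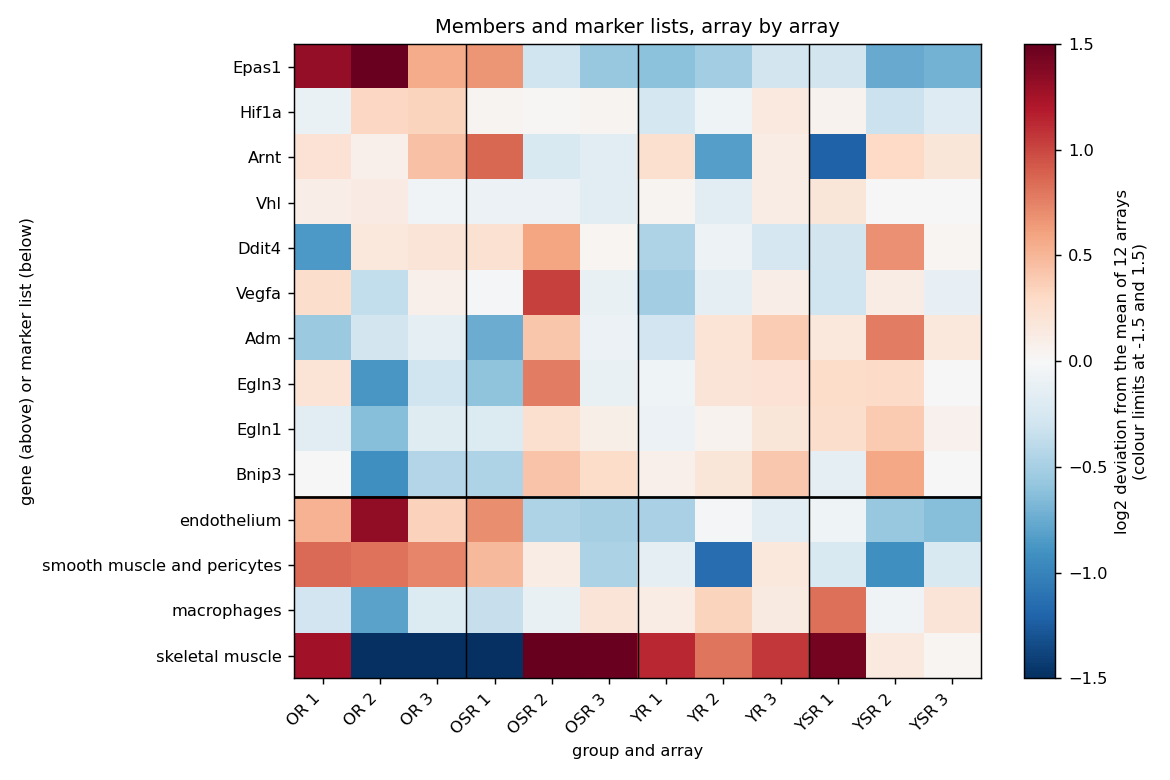
Deviation of each member, and of the mean of 4 marker lists, from its mean over the 12 arrays, on the log2 scale (colour, limits at -1.5 and 1.5). The marker lists, unlike the members, were first taken relative to each array's mean over all probe sets. Columns are arrays in the order OR, OSR, YR and YSR. Epas1 and the endothelium list are high in the OR arrays and OSR array 1, where Egln1 and Adm are below their means.

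The genes most like each factor were sought by Pearson r over 12 arrays. The search covered 12366 probe sets with 1 symbol whose mean signal reached the median of all probe sets. For Epas1 they were Ptprb (r = 0.98), Tek (0.98), Ldb2 (0.97), Fzd4 (0.97) and Tm4sf1 (0.97), with adjusted p from 6.37e-06 to 0.00122. As deviations from group means their r ran from 0.90 to 0.98, and Tek was the 1 gene called there (0.00322% of probe sets). Within the 8 arrays of lower Epas1 signal their r ran from 0.68 to 0.94.

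Tek, which encodes the angiopoietin receptor, read 10.97, 11.29 and 10.10 in the OR arrays, 10.64, 9.36 and 9.16 in the OSR arrays, 9.34, 9.54 and 9.46 in the YR arrays, and 9.74, 9.28 and 9.18 in the YSR arrays. The same 4 arrays as for Epas1 held its highest values. For Hif1a the leading genes were Rictor (r = 0.90), Plcb1 (0.87), Sumo2 (0.87), Nuak2 (0.86) and Trmt61a (0.86), with adjusted p from 0.643 to 0.646. As deviations from group means their r with Hif1a ran from 0.79 to 0.97. Within the 8 arrays of lower Epas1 signal it ran from 0.79 to 0.91. In the regression on Epas1 a smaller r could be called, as for Slc2a1 (r = -0.84, adjusted p = 0.0146).

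Markers of endothelium moved with Epas1, and their r with Hif1a was also positive. Relative to each array's mean over all probe sets, the mean of the list had r = 0.93 with Epas1 and 0.64 with Hif1a. For smooth muscle and pericytes these values were 0.85 and 0.595. The lists of T and NK cells (0.72) and neutrophils (0.65) had a higher r with Hif1a than endothelium did. Of the 6 endothelial markers 5 were measured, and all 5 were called positive in the regression on Epas1 (background 1.07%), namely Tek (r = 0.98), Kdr (0.93), Emcn (0.89), Pecam1 (0.81) and Vwf (0.77). Within the 8 arrays of lower Epas1 signal r was 0.68 for Tek, 0.74 for Kdr, 0.14 for Emcn, 0.11 for Pecam1 and 0.30 for Vwf. The summed signal of the 5 was 5445 to 10718 in OR, 2801 to 7091 in OSR, 3362 to 4231 in YR and 2730 to 3718 in YSR. In OR against YR all 5 had higher means, by 0.66 to 1.39 (log2), and 0 were called. Of 6 markers of smooth muscle and pericytes 3 were called positive with Epas1, and their summed signal was 7344 to 8120 in OR, 2806 to 6136 in OSR, 2316 to 4193 in YR and 3201 to 3735 in YSR. The part of vessel cells in the Epas1 values was not tested.

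Marker lists also moved with the members that were low in the OR arrays. The endothelial list had the largest r in size of all lists, at -0.84 with Egln1 and -0.84 with Bnip3. With Egln1 and Bnip3 r was -0.68 and -0.65 for smooth muscle and pericytes, -0.75 and -0.79 for adipocytes, and -0.65 and -0.70 for platelets. For these r values the mean of a list was taken relative to each array's mean over all probe sets, and the members were not. The mean of the 5 skeletal muscle markers had r = 0.82 with Bnip3, 0.74 with Egln1 and -0.62 with Epas1. Their summed signal was 1313 to 50997 in OR, 1380 to 87826 in OSR, 34636 to 63270 in YR and 21320 to 48320 in YSR. The muscle gene Ckm was lowest in OR array 2 (4.72), OSR array 1 (7.67) and OR array 3 (8.42), 3 of the 4 arrays of high Epas1 signal, and reached 11.75 in OR array 1, within the 10.68 to 13.33 of the other 8.

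The mean of the 6 macrophage markers had r = 0.73 with Egln1, 0.51 with Bnip3 and -0.73 with Epas1. Of the 6, 2 (Cd68 and Mrc1) were called negative in the regression on Epas1. Adgre1 read 13.61 in YSR array 1, the array of highest Gapdh 3' to 5' ratio, against 8.49 to 10.24 in the other arrays. The part of RNA quality in that value was not tested. Within the 8 arrays of lower Epas1 signal, with their narrow span, r with Epas1 was -0.19 for Cd68 and 0.16 for Mrc1. The 6 markers' summed signal was 52677 to 77308 in OR, 53198 to 71590 in OSR, 61586 to 79576 in YR and 60167 to 77158 in YSR, so that the ranges overlapped. Lyz2, the brightest of the 6 (mean log2 signal 15.14), weighs most in that sum. Over 12 arrays its r with Epas1 was 0.24, while the other macrophage markers had negative r. The mean of the 4 erythroid markers had r = -0.79 with Egln1, -0.67 with Bnip3 and 0.58 with Epas1, and their summed signal was 74556 to 101623 in OR, 59451 to 73547 in OSR, 54749 to 92498 in YR and 48907 to 63948 in YSR. The mean of the 4 osteoclast markers had r = 0.79 with Epas1, and that of the 5 adipocyte markers, 3 of them dim, had r = 0.81. These r values describe 12 arrays in which genes and markers were read from the same pools, and the part of these cell types in the members' values was not tested.

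The wider pathway was read from 5 lists of 60 genes, of which 55 had a probe set, 47 of them no dimmer than the median probe set. In OR against YR 28 of the 55 had a higher mean and 27 a lower one, with a median difference of 0.01 against 0.04 for all probe sets, and 0 were called (unadjusted p under 0.05 for 6 higher, background 4.8%, and for 8 lower, background 3.54%). Of 10 genes for vessels and vascular tone 9 had a higher mean in OR than in YR, with a median difference of 0.83. Of 13 metabolic targets 8 had a lower mean (median -0.32), and of 11 targets for stress and autophagy 9 had a lower mean (median -0.24). The median was 0.03 for 13 partners and regulators and -0.06 for 8 genes for matrix and iron. Differences between lists were not tested.

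These medians were not the same in the other comparisons, where 0 list genes were called. In OSR against YSR the median was 0.36 for vessels and vascular tone, with 7 of 10 higher, -0.01 for metabolism, with 9 of 13 lower, and -0.14 for stress and autophagy, with 7 of 11 lower. In OR against OSR it was 0.49 for vessels and vascular tone, -0.38 for metabolism, with 12 of 13 lower, and -0.18 for stress and autophagy. In YR against YSR it was 0.04 for vessels and vascular tone and -0.05 for metabolism, and for stress and autophagy it was 0.15, with 8 of 11 higher, the opposite sign to OR against YR.

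Among the vessel genes Cxcl12, a chemokine that attracts stem cells, averaged 12.42 ± 0.37 in OR, 11.62 ± 0.61 in OSR, 11.04 ± 0.40 in YR and 10.56 ± 0.11 in YSR (log2 signal, SD, n = 3 each). OR minus YR was 1.38 ± 0.28 (adjusted p = 0.207) and old minus young was 1.22 ± 0.20 (adjusted p = 0.0967). For Tek OR minus YR was 1.34 ± 0.36 (adjusted p = 0.318), and for the VEGF receptor gene Kdr it was 0.93 ± 0.29 (adjusted p = 0.394). Both Tek and Kdr are also among the endothelial markers.

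Of the metabolic genes Pfkfb3, which encodes an activator of glycolysis, differed by -0.94 ± 0.22 in OR minus YR (adjusted p = 0.237), and Ak4, a mitochondrial adenylate kinase gene, by -0.82 ± 0.22 (adjusted p = 0.307). Angptl4, which encodes an inhibitor of lipoprotein lipase, had the opposite sign, at 0.78 ± 0.13 in OR minus YR (adjusted p = 0.146) and 0.65 ± 0.09 in old minus young (adjusted p = 0.0905). For fixation the list genes of smallest p were Angptl4, at -0.51 ± 0.09 in rigid minus semi-rigid (adjusted p = 0.638), and the lactate exporter gene Slc16a3, at -0.74 ± 0.17 (adjusted p = 0.740).

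Ero1a, an oxidase gene for protein folding in the endoplasmic reticulum, differed by -0.87 ± 0.17 in OR minus YR (adjusted p = 0.203) and by -0.68 ± 0.23 in the interaction (adjusted p = 0.990). Ndrg1, a stress response gene, differed by -0.66 ± 0.23 (adjusted p = 0.464) and Tfrc, the transferrin receptor gene, by 1.50 ± 0.57 (adjusted p = 0.511) in OR minus YR. Of the regulators Nfe2l2, which encodes the oxidative stress factor NRF2, had the smallest p, at -0.30 ± 0.14 in OR minus YR (adjusted p = 0.606).

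In the regression on Epas1, 11 of the 55 genes were called, 3 positive (background 1.07%) and 8 negative (background 1.01%), and in that on Hif1a 0 were. The narrower span of Hif1a keeps these counts from being compared. The positive ones were the vessel genes Tek (r = 0.98), Kdr (0.93) and Cxcl12 (0.82). With Hif1a their r was 0.48, 0.68 and 0.64. Of the negative ones 5 were metabolic, namely Ak4 (-0.92), Pdk1 (-0.89), Pfkfb3 (-0.87), the glucose transporter gene Slc2a1 (-0.84) and Slc16a3 (-0.83), 2 belonged to stress and autophagy, Ndrg1 (-0.86) and Ero1a (-0.80), and 1, Plod1 (-0.80), to matrix and iron. These calls were made on the same 12 arrays, of which 4 hold the high Epas1 values. Within the other 8 arrays r was 0.68 for Tek and 0.74 for Kdr but 0.17 for Cxcl12, and for the 8 negative genes it ran from -0.68 (Ndrg1) to 0.38 (Pfkfb3).

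**Figure D5:**
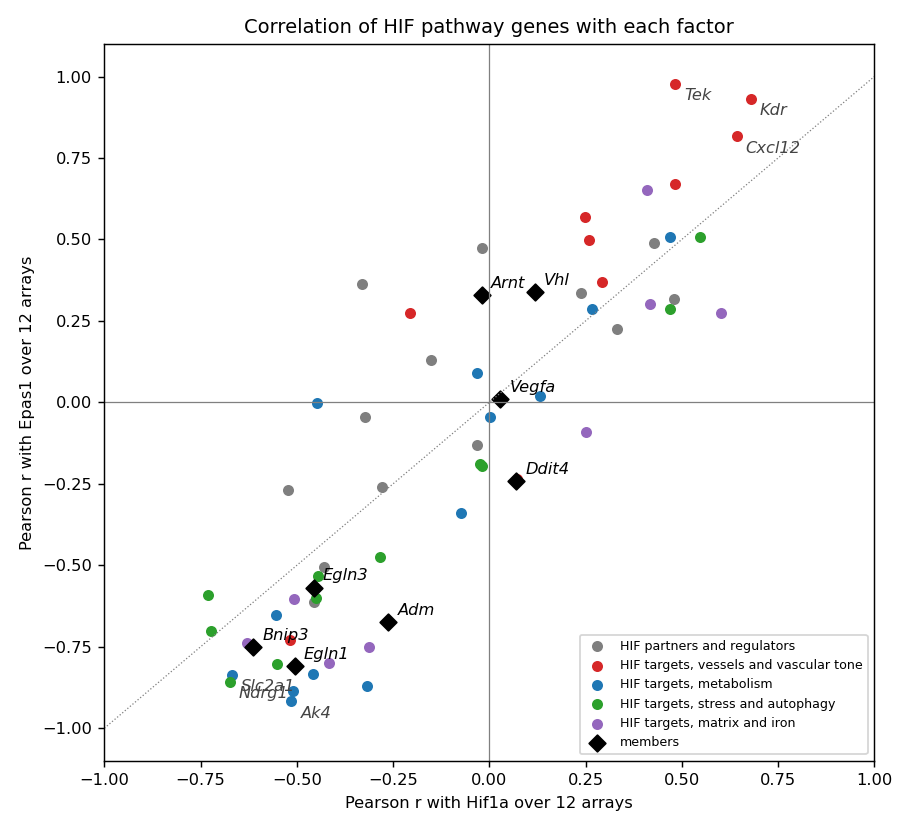
Pearson r over 12 arrays with Hif1a (horizontal) and with Epas1 (vertical) for the members (black diamonds) and the measured genes of 5 pathway lists (coloured points). The dotted line marks equal r with both. Tek (0.98) and Kdr (0.93) lie at the top, Ak4 (-0.92) lies lowest, and Egln1 (-0.81), Bnip3 (-0.75), Adm (-0.67) and Egln3 (-0.57) lie on the negative side for both factors.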

How the data were processed

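RNA from fracture hematoma of 4 groups (OR, OSR, YR and YSR, 3 arrays each) was hybridised to Affymetrix arrays. The deposited table gives 1 linear signal intensity per array for each of 31099 probe sets, with every array at a like trimmed mean, and the submitters' processing notes name GCOS 1.2. The study's methods name another summary of the scans, PLIER in Expression Console, and which of these made the deposited values is not settled by the sources. The scan files were not used here, and the number of arrays limits the precision. The p-values of the group comparisons rest on the spread between pools within a group. The correlations and regressions, other than those on deviations from group means, did not take group into account. Their p-values therefore mix differences between groups with the spread between pools. A floor of 1 was set before log2 values were taken, and 57 control probe sets were left out. Of the probe sets, 20832 had 1 symbol in the platform annotation, 436 had several and 9831 had none.

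All 12 arrays entered 1 fit of 4 group means in limma 3.58.1 (R 4.3.3, eBayes with an intensity trend), with Benjamini-Hochberg adjustment over 31042 probe sets and calls at an adjusted p under 0.05. Correlations used two-sided permutation tests with 100000 resamples, and a limma regression of every probe set on each factor gave their adjusted p. Python 3.11.15 with pandas 2.3.3, numpy 2.4.6, scipy 1.17.1 and matplotlib 3.10.9 did the rest. Both limma steps were tested on simulated data. Promoter windows came from RefSeq (GRCr8).

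Named were the 10 members, for each factor the 5 genes of highest r, and from each of 5 pathway lists up to 3 genes per comparison, called or of smallest unadjusted p, of which the text gives some. Genes called in the regressions, Stab1, Cyp26b1, Ckm and the marker genes fall outside that rule and were chosen after their values were seen. Members and lists were chosen with earlier results of these data known. Alternatives were quantile normalization, a pseudocount of 16, leaving out dim probe sets, no trend, only the arrays of a pair, the methods' analysis of variance, a replicate block, the mean of a gene's probe sets, leaving out the 2 arrays of highest Gapdh ratio and leaving out each array. Leaving out the 4 arrays of high Epas1 signal was added after the values were seen. Replicate numbers did not pair the arrays.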

Additional observations from a re-analysis of the deposited data

How the results depend on the processing

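With 3 pools per group, limits are set by the spread between pools. Of the 70 member differences (10 members in 7 comparisons), 27 changed sign under at least 1 alternative, and of the 28 given in the text 3 did. With the mean of a gene's probe sets, which brings in dim ones, Egln1, OR against YR, was 0.22, Egln1, old against young, was 0.0778, and Epas1, YR against YSR, was -0.41. Over all alternatives 1 member was called, Epas1 in old against young without OSR array 3. The cause of the changes below was not tested.

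Counts of calls over all probe sets moved as follows. OR against YR had 0 without a trend, under the methods' analysis of variance and without the 2 arrays of highest Gapdh ratio, and 14 with only the arrays of the pair. OSR against YSR had 0 under quantile normalization, without a trend, with only the arrays of the pair, under the analysis of variance and without the 2 arrays. Old against young had 4 without a trend, 0 under the analysis of variance and 1 without the 2 arrays. Without the 2 arrays YR against YSR had 27 and rigid against semi-rigid 3. Leaving out 1 array gave 0 to 4 calls for OR against YR, 0 to 1 for OSR against YSR, for OR against OSR and for rigid against semi-rigid, and 1 to 80 for old against young, where 80 came without OSR array 3. Members called in old against young were 0 to 1.

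Replicate numbers are shared between groups but did not pair the arrays, since same-numbered arrays had a median correlation of deviations of 0.019 over 18 pairs, against 0.020 over the 36 other pairs. With the replicate block OSR against YSR had 0 calls and old against young had 1.

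The number of probe sets that go with Epas1 was 644, against 1 as deviations from group means, 989 without the 2 arrays and 119 to 833 on leaving out 1 array, with 119 without OR array 2, 380 without OSR array 1, 408 without OSR array 3 and 420 without YSR array 2. Members called with either factor were 1, against 0 as deviations, 2 without the 2 arrays and 0 to 2 on leaving out 1 array. The r of Arnt with Hif1a turned to 0.17 (quantile normalization) and 0.0644 (without the 2 arrays), the r of Ddit4 with Hif1a to -0.0193 (without the 2 arrays), and, as deviations, r with Hif1a to -0.14 for Vegfa and 0.20 for Adm. With Epas1 it turned to -0.22 (deviations) and -0.14 (without the 2 arrays) for Vegfa and to 0.11 for Ddit4 (without the 2 arrays). Without the 4 arrays of high Epas1 signal it was -0.54 for Arnt, 0.21 for Egln1, 0.54 for Egln3 and 0.0276 for Adm. On leaving out 1 array, r with Hif1a ran from -0.17 to 0.0798 for Arnt, -0.0589 to 0.22 for Vhl, -0.16 to 0.20 for Vegfa, -0.39 to 0.0303 for Adm and -0.0743 to 0.43 for Ddit4, and r with Epas1 from -0.12 to 0.24 for Vegfa and -0.39 to 0.13 for Ddit4. The correlation over the 4 group means was not run because 4 points fall below the minimum of 6. Leaving out dim probe sets could give no value for Arnt.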
